A study of Mus musculus with 3 samples.

Results

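Connexins were examined in ureteric duct cells of the mouse embryo. Connexins are membrane proteins whose subunits join into hemichannels, and hemichannels of neighbouring cells dock to form gap junctions that pass ions, second messengers and small metabolites between cells. The family is split by sequence into alpha, beta, gamma, delta and epsilon groups, named Gja to Gje, and each protein also has a name based on its predicted mass. In the mature kidney, connexins are best known in the vessels and renin-producing cells, with several beta connexins in tubule epithelium. The 9 genes described here were taken by name from 19938 measured genes: the alpha connexins Gja1, Gja3, Gja4 and Gja5, the beta connexins Gjb1, Gjb2, Gjb5 and Gjb6, and the gamma connexin Gjc1. Each was read by 1 probe set that the platform annotation assigns to that gene alone, so no choice between probe sets arose for them. Levels of different probe sets cannot be ranked as transcript amounts, because probe sets differ in affinity, and each gene was therefore set against background rather than against another gene.

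The study comprised 3 arrays of a single group, with no second condition. Each array held RNA from ureteric duct cells of CD-1 embryos at 10.5 dpc (Theiler stage 18) carrying the Tg(Hoxb7-EGFP)33Cos transgene, in which a Hoxb7 promoter drives green fluorescent protein in the nephric duct and its derivatives. The cells were microdissected, treated with trypsin for 5 minutes and sorted by fluorescence, with a pool size of 1 duct per sample, embryo sex unknown, and 1 round of amplification. Separate embryos or litters are not stated for the 3 samples, so p-values reflect the spread of these 3 alone, part or all of which may be technical.

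Values are log2 signals. Background was the 95th percentile, on each array, of 1210 probe sets for olfactory and vomeronasal receptors, genes of sensory neurons, and this cutoff lay between 5.70 and 5.73. The values minus the cutoff were tested with limma, one-sided, and a gene with a Benjamini-Hochberg adjusted p under 0.05 over all named probe sets is called above background. The duct label was set against its markers: 18 of 18 measured duct and epithelial genes were called, against 56.1% of all genes. The highest was the calbindin gene Calb1, at 11.71 ± 0.03 (SD, n = 3). Genes of other cell types were also called, and their counts are to be read beside the same 56.1%. Of 16 endothelial genes 15 were called, against 3 of 12 for mesenchyme and stroma, 2 of 8 for smooth muscle and pericytes, 2 of 5 for neurons and neural crest, 1 of 7 for macrophages, 1 of 7 for red cells and 1 of 5 for germ cells. Array 1 stood apart in embryonic globins: Hbb-y read 10.02, 5.31 and 5.45 on arrays 1, 2 and 3, and Hba-x 8.89, 5.97 and 5.84. In sorted bulk samples, fewer cells of a type and less RNA per cell cannot be told apart.

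Connexin genes differed in their distance from background, which does not rank their transcript amounts. Gja1 and Gjc1 lay more than 3 log2 units above the cutoff on every array. Gjb1, Gja3, Gjb5 and Gja5 lay between 0.10 and 0.57 log2 units above it on average and were called. Gja4, Gjb6 and Gjb2 were not called. In all 6 of the 9 genes were above background, against 56.1% of all 19938 genes, so the share of these 9 was near that of the whole array. This does not extend to the whole family, as 1 of 7 other measured connexins was called. The median distance from the cutoff was 0.37 log2 units over the 9 genes and 0.32 over all genes.

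**Figure D1:**
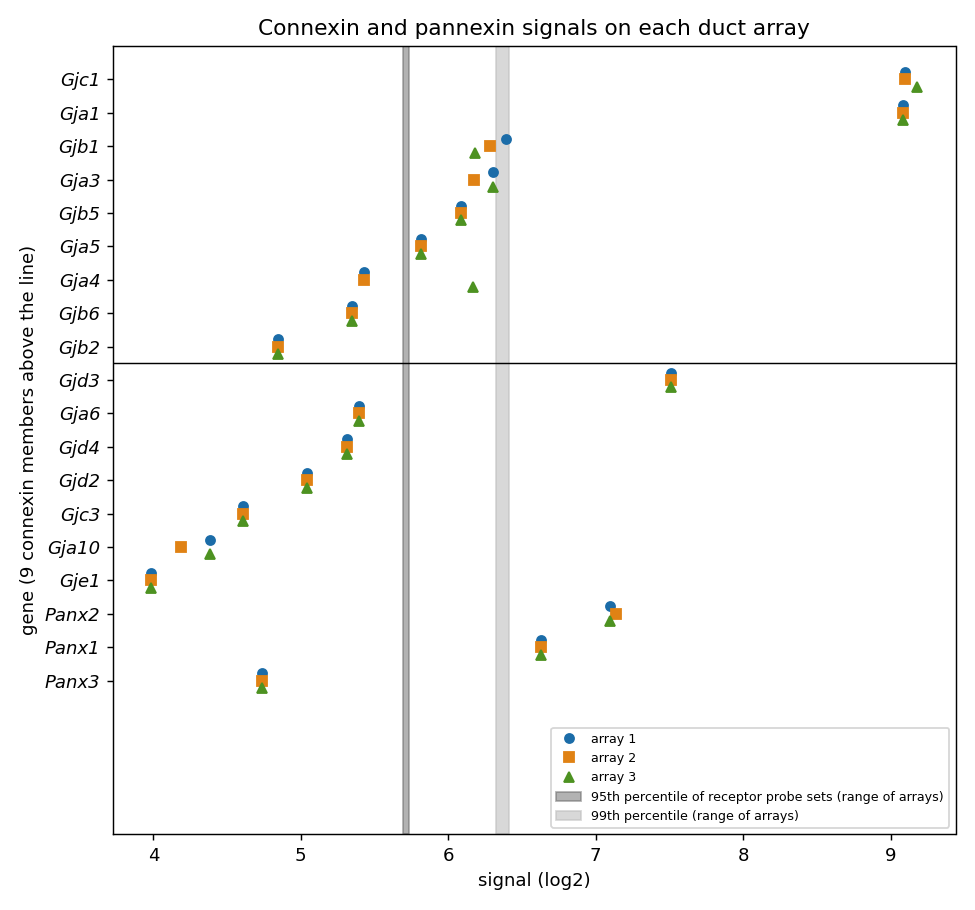
Log2 signal (x axis) of the 9 connexin genes above the line, and of 7 other connexin and 3 pannexin genes below it, 1 row per gene and 1 point per array. The dark and light bands span the 95th and 99th percentiles of the receptor probe sets over the 3 arrays; Gja1 and Gjc1 lie beyond both bands, and Gja4 is on different sides of the dark band on array 3 and on arrays 1 and 2.

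Gja1 encodes Cx43, the most widely distributed connexin and a subunit of gap junctions in heart muscle, mesenchyme and many epithelia. It read 9.08, 9.08 and 9.08 on arrays 1, 2 and 3, exactly the same deposited value, so no spread can be given. This lay 3.37 log2 units above the cutoff (limma, Benjamini-Hochberg adjusted p = 2.26e-06), which is 10.3-fold. On each array 0 of the 1210 receptor probe sets reached the level of Gja1, and no other probe set held its value. Because the fitted spread of such a gene comes only from the cutoffs and from moderation, its p does not measure the error between arrays.

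Gjc1 encodes Cx45, a connexin of the early embryonic heart and of vascular smooth muscle. It read 9.10, 9.10 and 9.18 on arrays 1, 2 and 3, a mean of 9.12 ± 0.05 (SD, n = 3), and the arrays differed by 0.085 at most. The distance from the cutoff was 3.41 ± 0.03 log2 units (SE; limma, adjusted p = 4.89e-06), or 10.7-fold. As with Gja1, 0 receptor probe sets were at or above its level on any array. These were the only 2 of the 9 genes called when the cutoff was set at the receptors' 99th percentile (6.33 to 6.41), which 36.1% of all genes passed.

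Markers of cell types that are known to use Cx43 and Cx45 were measured on the same arrays. The mesenchyme and stroma list had a median signal of 4.93 on each array, below the cutoff. Its brightest members were Col1a1 and Col1a2, both collagen I chains, at 6.75 and 6.61, while Lum, a proteoglycan of connective tissue, read 3.23. In the smooth muscle and pericyte list, Cspg4, a proteoglycan of pericytes, averaged 5.93 ± 0.04 and Tagln, an actin-binding protein of smooth muscle, 5.90 ± 0.0045 (SD, n = 3), and Rgs5, a pericyte marker, read 5.07. The summed log2 signal of the 8 smooth muscle genes was 44.4, 43.7 and 46.0 on arrays 1, 2 and 3, and that of the 12 mesenchyme genes 62.0, 62.3 and 62.0. All of these mesenchyme genes but Pdgfra held the same value on every array, so their sum could change only with Pdgfra. The endothelial list had a median signal of 7.63, 7.02 and 7.58 on arrays 1, 2 and 3, above the cutoff. Of its 16 genes 15 were called, against 56.1% of all genes. The part of any of these cell types in the Gja1 and Gjc1 signals was not tested.

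RefSeq promoter windows on GRCm38.p6, from 250 bases before to 50 bases after a transcript's start, were available for 8 of the 9 genes, all but Gjc1. The windows of Gja1, Gjb2 and Gja4 are shown because these genes lay far above background, well below it, and on both sides of it. Capitals mark matches, on either strand, to the AP-1 motif TGANTCA, the GC box GGGCGG or the TATA box TATAAA. The lines are 5′ to 3′ on the gene's strand, for Gja1 at chr10:56377050-56377349 on the plus strand, for Gjb2 at chr14:57104653-57104952 on the minus strand and for Gja4 at chr4:127313990-127314289 on the minus strand.
Gja1: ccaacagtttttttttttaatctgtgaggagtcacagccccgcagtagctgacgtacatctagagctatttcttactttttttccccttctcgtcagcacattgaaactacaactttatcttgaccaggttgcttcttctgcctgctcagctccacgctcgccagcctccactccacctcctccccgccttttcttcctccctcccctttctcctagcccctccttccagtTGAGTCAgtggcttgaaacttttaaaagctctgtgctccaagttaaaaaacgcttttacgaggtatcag
Gjb2: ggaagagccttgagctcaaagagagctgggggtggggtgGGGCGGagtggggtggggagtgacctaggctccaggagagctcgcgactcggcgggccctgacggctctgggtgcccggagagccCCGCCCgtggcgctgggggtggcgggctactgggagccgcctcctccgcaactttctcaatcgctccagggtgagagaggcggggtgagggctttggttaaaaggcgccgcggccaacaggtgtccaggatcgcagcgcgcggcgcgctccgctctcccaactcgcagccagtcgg
Gja4: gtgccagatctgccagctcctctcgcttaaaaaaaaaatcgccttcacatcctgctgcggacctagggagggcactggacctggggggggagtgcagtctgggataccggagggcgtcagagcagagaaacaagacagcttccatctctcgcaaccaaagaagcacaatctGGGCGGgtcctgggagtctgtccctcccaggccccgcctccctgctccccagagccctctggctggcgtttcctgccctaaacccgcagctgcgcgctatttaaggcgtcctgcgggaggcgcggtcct

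In the Gja1 window the AP-1 match begins 19 bases before the start. None of the other 7 genes' windows held this motif, which was found in 7.81% of all 32851 windows of the same length. The Gja1 window held 8 CpG dinucleotides and was 47.7% G and C. That of Gjb2, which was not called, held 27 CpGs and was 70.0% G and C, with GC boxes beginning 211 and 126 bases before the start. The Gja4 window held 16 CpGs, was 62.0% G and C, and had a GC box beginning 79 bases before the start. GC boxes were found in 35.7% of all windows and TATA boxes in 13.6%, and the median window had 7 CpGs. A match is a run of letters, and no factor's binding was measured here.

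Among the alpha connexins, Gja3 encodes Cx46, a connexin best known from lens fibre cells. Its signal was 6.30, 6.17 and 6.30 on arrays 1, 2 and 3, a mean of 6.26 ± 0.08 (SD, n = 3). Array 2 was lowest, and all 3 arrays were above the cutoff, by 0.55 ± 0.04 log2 units (SE; limma, adjusted p = 0.00108). Of the receptor probe sets, 1.24%, 1.74% and 1.24% were at or above Gja3 on arrays 1, 2 and 3. The value on arrays 1 and 3 was also held by 25 and 29 other probe sets, while the value on array 2 was held by no other.

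Gja4 encodes Cx37 and Gja5 encodes Cx40, both connexins of arterial endothelium, and Cx40 is also a connexin of the atria and of the renin-producing cells of the kidney. Gja4 read 5.43 on array 1, 5.43 on array 2 and 6.17 on array 3, a mean of 5.67 ± 0.43 (SD, n = 3). Only array 3 was above the cutoff, and the mean distance was -0.04 ± 0.20 log2 units (SE; limma, adjusted p = 0.944). Gja4 had the widest range of the 9 genes, 0.74 log2 units, against 0.21 for the next, Gjb1, and ranges over 0.5 were found for 2034 of all 19938 genes. On arrays 1 and 2 it shared its value with 0 other probe sets, but on array 3 with 74. Without array 3 the mean distance was -0.29, and without array 1 or array 2 it was 0.079 or 0.097, with no call in any of these fits.

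Gja5 read 5.81 on all 3 arrays, the same deposited value each time, at a distance of 0.10 log2 units, or 1.07-fold over the cutoff (limma, adjusted p = 0.00528). This call was the least firm of the 6. Between 4.13% and 4.38% of the receptor probe sets were at or above it, and its 3 values were exactly those of 69 other probe sets, 2 of them for receptors. The call was lost without array 1 (adjusted p = 0.0598), without array 3 (adjusted p = 0.403), with olfactory receptors alone as background (adjusted p = 0.131), and when probe sets with 1 value were given the typical spread of the others (adjusted p = 0.177). The fit without array 3 estimated 1 spread for all genes.

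Endothelial genes were mostly well above background on the same arrays, and most were lowest on array 2. Emcn, an endothelial sialomucin, read 10.40, 9.28 and 10.53 on arrays 1, 2 and 3. Cdh5, the vascular cadherin, read 9.31, 8.44 and 9.54. Array 2 was also lowest for 7 of 18 duct and epithelial genes, 4 of 8 smooth muscle and pericyte genes and 0 of 12 mesenchyme genes. The share over all genes was not counted. Every mesenchyme gene but Pdgfra, and some duct genes, held 1 value on all arrays and so could not be lowest on any. The lists can therefore not be compared by these counts. Of the 16 endothelial genes 15 were lowest on array 2, and their summed log2 signal was 123.0, 113.1 and 123.5 on arrays 1, 2 and 3. Gja4 was below the cutoff on arrays 1 and 2, and the value of Gja5 was shared with 69 other probe sets, so neither gene could show whether it followed this difference. Among 8 arterial genes 5 were called, against 56.1% of all genes. Of these 8, 5 held 1 value on all arrays and so could not differ between them. The arterial ligand gene Efnb2 averaged 10.23 ± 0.36 and the co-receptor gene Nrp1 8.35 ± 0.04 (SD, n = 3), both also expressed outside vessels, while the arterial repressor gene Hey2 read 3.59, below the cutoff. Unc5b, named after its value was seen, held exactly the values of Gja5.

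Gja4 was above the cutoff only on array 3, where its 6.17 was under the receptors' 99th percentile of 6.40. There 74 other probe sets held its value. Array 3 was also the array on which 5 of the 8 smooth muscle and pericyte genes were highest. None of these 5 was called above background over the 3 arrays, and the 2 called genes, Cspg4 and Tagln, read the same on arrays 1 and 3. Named after their values were seen, Acta2, the smooth muscle actin, read 5.75, 5.35 and 6.58 on arrays 1, 2 and 3, and the muscle filament gene Des 5.44, 5.44 and 5.97. Of the 16 endothelial genes 6 were highest on array 3 and 5 on array 1. The share of all genes highest on each array was not counted, so these counts have no baseline. Whether any of these cells contributed to the Gja4 signal was not tested. Out of 1550 called genes with a range over 0.5 log2 units, those with the array pattern nearest to Gja4 were Ndel1, Gnaq and Pcgf3, at Euclidean distances of 0.023, 0.023 and 0.025 log2 units over 3 arrays. Ndel1, a dynein regulator, read 6.72, 6.72 and 7.44. Like Gja4, these 3 genes held the same value on arrays 1 and 2 and were higher on array 3. With 3 arrays such likeness is only a description.

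**Figure D2:**
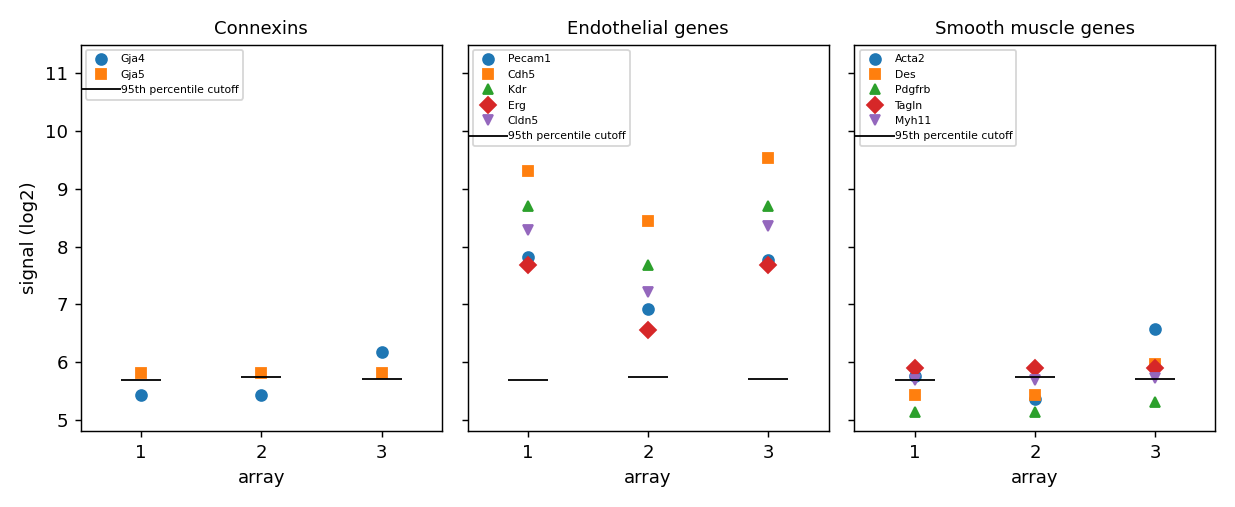
Log2 signal (y axis) on each array (x axis) for Gja4 and Gja5, for 5 endothelial genes and for 5 smooth muscle and pericyte genes chosen after their values were seen, with a bar at each array's 95th percentile cutoff. Gja4 crosses the cutoff only on array 3, the 5 endothelial genes are lowest on array 2, and Acta2 reads 6.58 on array 3.

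Among the beta connexins, Gjb1 encodes Cx32, the main connexin of hepatocytes and a connexin of myelinating Schwann cells. It read 6.39, 6.28 and 6.18 on arrays 1, 2 and 3, a mean of 6.28 ± 0.11 (SD, n = 3), and it was the only one of the 9 genes with a different value on each array. The distance from the cutoff was 0.57 ± 0.05 log2 units (SE; limma, adjusted p = 0.00157), or 1.49-fold. Between 1.07% and 1.90% of the receptor probe sets were at or above it, and no other probe set shared its values.

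Gjb5 encodes Cx31.1, a connexin of the epidermis and the placenta. It read 6.09 on all 3 arrays, with no spread, 0.37 log2 units above the cutoff (limma, adjusted p = 0.000155), or 1.30-fold. Its 3 values were also those of 53 other probe sets, of which 2 were for receptors, and 2.23% to 2.40% of the receptor probe sets were at or above it.

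Gjb2 and Gjb6 encode Cx26 and Cx30, which form the gap junctions of the supporting cells of the cochlea, and Cx30 has also been found in the collecting duct of rodents. Gjb2 read 4.85 on all 3 arrays, 0.86 log2 units under the cutoff, so that its distance was -0.86. On each array 23.3% to 23.5% of the receptor probe sets were at or above Gjb2, and its 3 values were those of 128 other probe sets, 13 of them for receptors. Gjb6 read 5.35 on all 3 arrays, a distance of -0.36, with 11.1% to 11.4% of the receptor probe sets at or above it and 97 other probe sets at the same 3 values. Both genes were thus within the range of the receptor probe sets on every array, and a low transcript level could not be told from background.

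**Figure D3:**
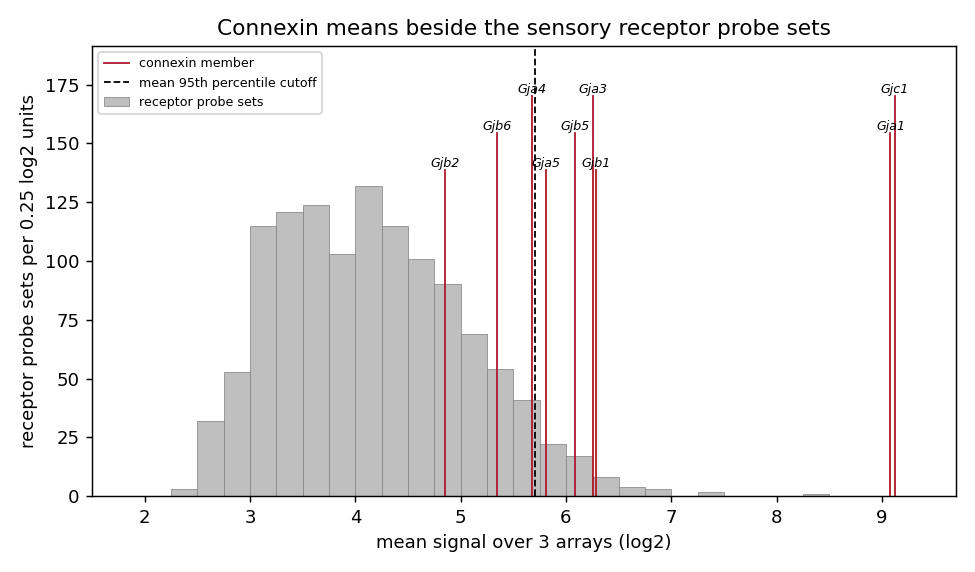
Histogram of the mean log2 signals (x axis) of the 1210 receptor probe sets in bins of 0.25 log2 units (y axis, probe sets per bin), with a red line at the mean of each connexin gene and a dashed line at the mean 95th percentile cutoff of 5.71. The highest receptor mean was 8.43, below Gja1 and Gjc1, and the other 7 connexin lines fall inside the receptor range.

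Calls differed within a cluster of neighbouring connexin genes. Gja3, Gjb2 and Gjb6 are consecutive coding genes in the GRCm38.p6 annotation. Gja3 was called at 6.26 ± 0.08 (SD, n = 3), and Gjb2 and Gjb6 were not called at 4.85 and 5.35. At the 99th percentile cutoff the distance of Gja3 was -0.12, and none of these genes was called.

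Exact ties set how far the weaker signals can be read. On all 3 arrays 5 of the 9 connexins held 1 value, 3 held 2 values and 1 held 3, while 50.8% of all genes held 1 value. For Gja5, Gjb2, Gjb5 and Gjb6 that value was also held on all arrays by at least 53 other probe sets, receptors among them, whereas Gja1, Gjc1 and Gjb1 shared theirs with none. Of all genes, 27.2% held 3 values that were common to 10 or more probe sets. When a gene whose 3 values were also those of a receptor probe set was left uncalled, a rule added after seeing the data, 4 connexins were called (Gja1, Gjc1, Gjb1 and Gja3), against 53.2% of all genes. What produced the shared values was not tested.

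**Figure D4:**
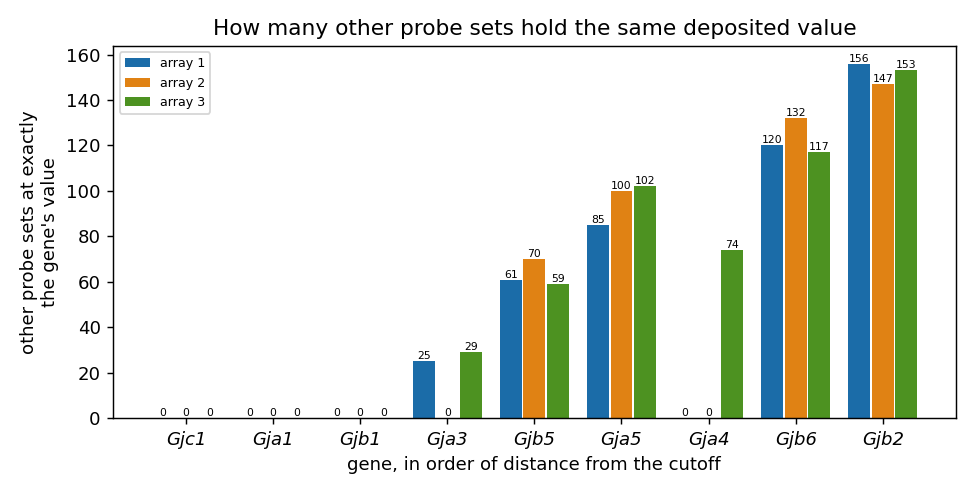
Number of other probe sets on the array (y axis, out of 35557 probe sets in all) that hold exactly the deposited value of each connexin gene (x axis), 1 bar per array. Gja1, Gjc1 and Gjb1 stand at 0 on every array and Gjb2 at 147 to 156, while Gja4 stands at 0 on arrays 1 and 2 and at 74 on array 3.

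The calls of Gja1 and Gjc1 held under all 14 alternatives tried, some of which could not change a connexin's distance. Gjb1 and Gja3 were called under 12, Gjb5 under 11, Gja5 under 7, Gja4 and Gjb6 under 1 each and Gjb2 under 0. With the cutoff raised by 1 log2 unit, 2 of the 9 were called, against 28.3% of all genes. With the receptors' 90th percentile as cutoff, 6 were called, against 65.5% of all genes. A cutoff at the 30th percentile of every probe set gave 8, against 75.3%. With olfactory receptors alone, and with a typical spread assigned to probe sets of 1 value, 5 were called, against 53.9% of all genes each time. Without array 1, 2 or 3 the connexin counts were 5, 6 and 5, against 55.2%, 54.9% and 51.9% of all genes. Centring the arrays (56.1% of all genes), a trended prior (56.3%), the mean over a gene's probe sets (55.7%) and its lowest probe set (55.0%) left 6 called. Each connexin had 1 probe set, so the mean and the lowest probe set could not change its value. Centring moves values and cutoffs together. The calls under centring, mean and lowest probe set are therefore no further support. The calls of Gjb1, Gja3, Gjb5 and Gja5 ended at the higher cutoffs.

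**Figure D5:**
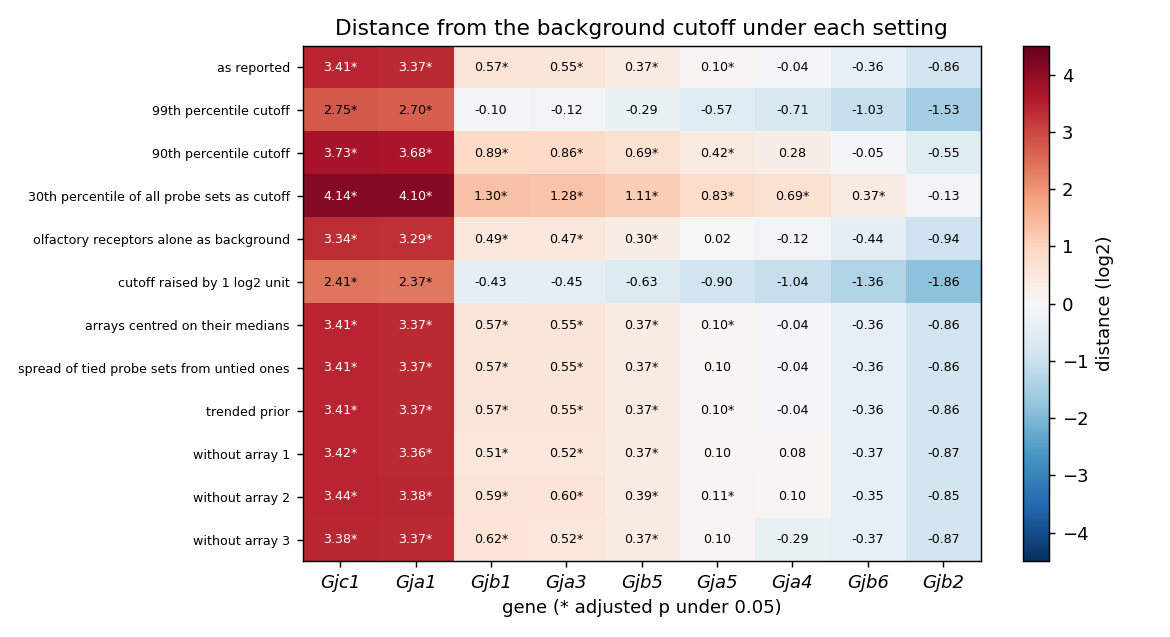
Distance from the background cutoff in log2 units (colour and number) of each connexin gene (columns) as reported and under 11 alternatives (rows), with an asterisk where limma's adjusted p was under 0.05. The columns of Gja1 and Gjc1 carry an asterisk in every row, from 2.37 to 4.14 log2 units, and that of Gjb2 in none.

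Other measured connexins were mostly at background. Of 11 further connexin genes listed, 7 had a probe set assigned to that gene alone, and the rest could not be read. Of these 7, 1 was called and 6 were not, against 56.1% of all genes. The called gene was Gjd3, which encodes a connexin of the cardiac conduction system, at 7.51 on all 3 arrays and 1.80 log2 units above the cutoff (limma, adjusted p = 4.79e-06). It was also called at the 99th percentile. Gjd2, the main connexin of neurons, read 5.04, Gjc3, a connexin of myelinating glia, 4.61, Gja6, a connexin of the testis, 5.39, Gjd4, described in developing muscle, 5.31, and Gje1, a connexin of the lens, 3.99, each the same on all arrays. Gja10, a connexin of retinal horizontal cells, read 4.39, 4.18 and 4.39. The median distance of these 7 genes was -0.67 log2 units. Pannexins form channels in a single membrane and are unrelated to connexins in sequence. Of 3 pannexin genes 2 were called, against 56.1% of all genes. These were Panx2 at 7.11 ± 0.02 (SD, n = 3) and Panx1 at 6.63 on all arrays. Panx3, a pannexin of cartilage and bone, read 4.74 and was not called.

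Proteins that bind connexins or carry them to the membrane were called for 14 of 16 genes, against 56.1% of all genes, and 11 passed the 99th percentile cutoff, against 36.1%. The median distance was 1.62 log2 units in this list and 0.32 over all genes. Tjp1 encodes ZO-1, a scaffold that binds the tail of Cx43 and sits at the gap junction's edge. It read 9.96, 9.81 and 9.81 on arrays 1, 2 and 3 and lay 4.15 ± 0.05 log2 units above the cutoff (SE; limma, adjusted p = 8.5e-06). The related scaffold gene Tjp3 read 6.52 on all arrays. Ctnnb1, the beta-catenin of adherens junctions, averaged 9.60 ± 0.06 and Dbn1, the actin-binding protein drebrin, 7.78 ± 0.15 (SD, n = 3). Ccn3, a matricellular protein that binds Cx43, at 5.48 ± 0.04, and Cnst, a connexin trafficking receptor, at 5.77 ± 0.23 (SD, n = 3), were not called.

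Kinases and phosphatases known to act on Cx43 were called for 9 of 11 genes, against 56.1% of all genes, and 8 passed the 99th percentile cutoff, against 36.1%. Their median distance was 1.34 log2 units. Csnk1d, a casein kinase that phosphorylates the Cx43 tail, averaged 8.43 ± 0.05 (SD, n = 3), and Src, a tyrosine kinase that closes Cx43 channels, read 6.78 on all arrays. Prkca, a protein kinase C gene, read 5.53 on all arrays and was not called, nor was Prkce, named after its value was seen, at 5.14 ± 0.03 (SD, n = 3). These lists and the connexins themselves share the arrays, and no difference between the lists was tested.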

How the data were processed

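Gene expression was measured on 3 Affymetrix arrays of sorted ureteric duct cells, forming 1 group, with array numbers from the titles. The deposited table gives 1 log2 signal for each of 35557 probe sets and array, as made by the authors with Affymetrix Expression Console, per the submitters' processing notes. The log2 scale was read from the values, which ran from 1.90 to 14.2 with array medians of 5.85 to 5.90. The sources used here do not give the algorithm, background correction, filters or version. The same value stood on all 3 arrays for 39.7% of probe sets, so spread is understated.

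Probe sets were named by the platform annotation: 21789 had 1 symbol, 1621 several (not used) and 12147 none. Where a gene had several probe sets, that of highest mean was used. Signals minus the receptor cutoff were fitted across all 21789 probe sets in limma 3.58.1 (R 4.3.3), with a one-sided test and Benjamini-Hochberg adjustment. Tested on simulated data with a spread of 0.116 log2 units, the test called 90% of probe sets set 0.25 units above the cutoff and 0% of those 0.5 units below. The simulated probe sets all varied between arrays, so this does not cover genes with 1 value on all arrays, such as Gja5 and Gjb5. By construction, about 5% of the receptor probe sets exceed the cutoff, and 57 did on all arrays.

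The connexins, lists, test and alternatives were chosen with earlier results of these data known. The text names all 9 connexins, every measured gene of the other connexin and pannexin lists, set genes of the partner and kinase lists, the 2 highest and the lowest genes of the marker lists, where a result turns on them, and the 3 genes nearest in pattern to a connexin with a range over 0.5. The number of arrays limits the precision.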

Additional observations from a re-analysis of the deposited data

How the results depend on the processing

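The connexin count depended mainly on the cutoff. At the receptors' 99th percentile it was 2 (7193 of all genes), with a median distance of -0.29, and distances of -0.12 for Gja3, -0.57 for Gja5, -0.095 for Gjb1 and -0.29 for Gjb5. With the cutoff raised by 1 log2 unit it was 2 (5647 of all genes), with a median of -0.63, and -0.45 for Gja3, -0.90 for Gja5, -0.43 for Gjb1 and -0.63 for Gjb5. Lower cutoffs shift distances up by construction: the 90th percentile gave a median of 0.69 and 0.28 for Gja4, and the 30th percentile of all probe sets a median of 1.11, with 0.69 for Gja4 and 0.37 for Gjb6. Olfactory receptors alone gave a median of 0.30. Leaving out each array in turn gave 5 to 6 called connexins, 10354 to 11002 of all genes, medians of 0.37 to 0.39, and -0.29 to 0.097 for Gja4. The combined count for other connexins, pannexins, partners and kinases was 26 of 37 and ranged from 19 to 32, while the share of all genes called was 56.1% and ranged from 28.3% to 75.3%. No paired analysis was possible because there was only 1 group. Signals near the cutoff cannot be told from background on these arrays.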
